A study of Mus musculus with 4 samples.

Results

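The enzymes and transporters described here are 49 genes of central carbon metabolism: 22 for glucose and lactate transport, glycolysis and its regulation, 7 for the pentose phosphate pathway, and 20 for pyruvate oxidation and the tricarboxylic acid (TCA) cycle with its NADP-linked, cytosolic and anaplerotic partners. They were chosen by name for their place in these pathways and not by a cut on measured values, but earlier results of these data were known. All 49 were found among the 47729 genes of the count table, and all 49 were among the 12536 genes with enough counts to be tested.

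The libraries hold mRNA of regulatory T (Treg) cells, the CD4 T cells that are defined by the transcription factor Foxp3 and restrain immune responses. The comparison asks what changes in Treg cells when TfR1, the transferrin receptor encoded by *Tfrc* and a main entry route for iron, is deleted. The genotype of 2 libraries, called TfR1-deficient, was Tfrc fl/fl Foxp3 YFP-Cre/+, and that of 2 others, called WT, was Tfrc +/+ Foxp3 YFP-Cre/+, numbered as replicates 1 and 2 of each genotype. The labels give the strain as C57BL/6, the study's text describes mice heterozygous for this *Foxp3* allele as females, and the WT controls carried the YFP-Cre allele too. Cre is made from the X-linked *Foxp3* locus of 1 of the 2 X chromosomes, so the mice keep YFP-negative Treg cells in which that chromosome is silent. By the study's methods, the cells sequenced were CD4 T cells sorted as CD25+ and YFP+. The labels give the spleen as the tissue, while a supplementary legend of the study adds lymph nodes. Apart from hemizygous knockout males, mice were 6 to 8 weeks old, and the libraries are described as biological replicates. Whether each came from its own mouse or from pooled mice is not given in the sources used here, and p-values measure only the spread between these libraries.

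Glycolysis takes glucose in through GLUT transporters, traps it as glucose 6-phosphate by hexokinase and splits it to pyruvate, which lactate dehydrogenase can turn into lactate for export. The pentose phosphate pathway branches off at glucose 6-phosphate and yields NADPH and ribose. Pyruvate that enters mitochondria is made into acetyl-CoA by the pyruvate dehydrogenase complex and oxidised in the TCA cycle, where succinate dehydrogenase carries iron-sulfur clusters. Several glycolytic genes are known targets of the hypoxia-inducible factors (HIF), whose alpha subunits are marked for degradation by iron-dependent prolyl hydroxylases.

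*Tfrc* itself was counted at 50.8 and 54.1 CPM (counts relative to library size, with TMM scaling) in WT, with 56.1 CPM in the first and 48.3 CPM in the second library labelled TfR1-deficient. The log2 fold change was -0.01 (SE 0.16, 95% interval -0.41 to 0.39, adjusted p = 0.999, quasi-likelihood test of edgeR, Benjamini-Hochberg adjustment over all tested genes). Counts over a whole gene do not show whether floxed exons are missing, so this count does not check the labels, and directions below follow them. Library totals ran from 10841939 to 17278448 counts. Replicates were far apart, with a biological coefficient of variation of 0.323 over all genes, and the first principal component (62.6% of the variance) set WT replicate 1 and TfR1-deficient replicate 2 against the other pair. Those same libraries were high in 10 proliferation genes, which summed to 1123 and 332 CPM in WT and 340 and 1054 CPM in TfR1-deficient. Likewise, 20 macrophage genes summed to 2415 and 986 CPM in WT and to 883 and 6071 CPM in TfR1-deficient. *Ctsb* alone held 1195 and 887 CPM of these sums in WT and 810 and 2403 CPM in TfR1-deficient, so most of the 2 low sums. Some other genes of the list differed far more between libraries, such as *Csf1r* at 124 and 1.97 CPM in WT and 4.96 and 371 CPM in TfR1-deficient. *Fcgr1* and *Mertk* were at 0 in WT replicate 2. A sum over 8 T cell and Treg markers, *Foxp3* and *Ctla4* included, was 5142 and 4931 CPM in WT and 4300 and 3830 CPM in TfR1-deficient, with no overlap. Summed B cell, CD8 T and NK cell, and platelet markers stayed at or under 44.2 CPM in every library, while 5 erythroid genes summed to 16.9, 113, 43.5 and 278 CPM in WT replicates 1 and 2 and TfR1-deficient replicates 1 and 2. The part of these markers in the results below was not tested, except for the values given without single libraries. In bulk RNA, fewer cells of a type and less RNA per cell cannot be told apart.

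Transcripts of central carbon enzymes differed little between the genotypes. Across the 49 genes the median log2 fold change, TfR1-deficient against WT, was -0.04, beside 0.01 over all tested genes. Below 0 were 30 of the 49, a larger share than the 48.9% over all tested genes. Only 2 of the 49, *Idh1* and *Pcx*, had an estimate beyond 0.5 in either direction, and 79.7% of all tested genes stayed within 0.5. These shares are not like for like, because the median SE was 0.179 for the 49 and 0.272 over all tested genes. For 39 of the 49 the whole 95% interval lay within a change of 1 on the log2 scale (a 2-fold change). Among 53 further tested genes of the same pathways this held for 26, and the share over all tested genes was not computed. None of the 49 had an adjusted p under 0.05 in edgeR's quasi-likelihood test, the lowest being 0.911, and the background was also 0% (0 of 12536 genes, lowest adjusted p 0.266), while DESeq2 called 34 genes of the table, 0 of them among the 49. At an unadjusted p under 0.05, edgeR placed 1 enzyme lower (*Hk1*) and 1 higher (*Me2*), the same numbers as DESeq2, against a background of 3.34% of all tested genes lower and 1.88% higher. With the study's added requirement of a log2 change of at least 0.5, 0 were lower and 0 higher (background 2.48% and 1.6%). Both TfR1-deficient libraries lay below both WT libraries in 8 of the 49 (*Hk1*, *Aldoa*, *Rpia*, *Rpe*, *Dld*, *Cs*, *Dlst* and *Pcx*) and above both in 5 (*Ldhb*, *Pgls*, *Pdhb*, *Idh1* and *Me2*), beside a background of 18.9% and 16%. By pathway, the median log2 fold change was -0.06 in glycolysis, -0.06 in the pentose phosphate pathway and -0.03 among pyruvate and TCA genes. Between WT replicate 2 and TfR1-deficient replicate 1 alone, the libraries low in macrophage and proliferation transcripts, the medians were -0.01, -0.11 and -0.03, as values with no test. Leaving out single libraries moved the glycolysis median between -0.11 and 0.09, so its sign was not stable. The plot of fold changes shows these intervals gene by gene.

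**Figure D1:**
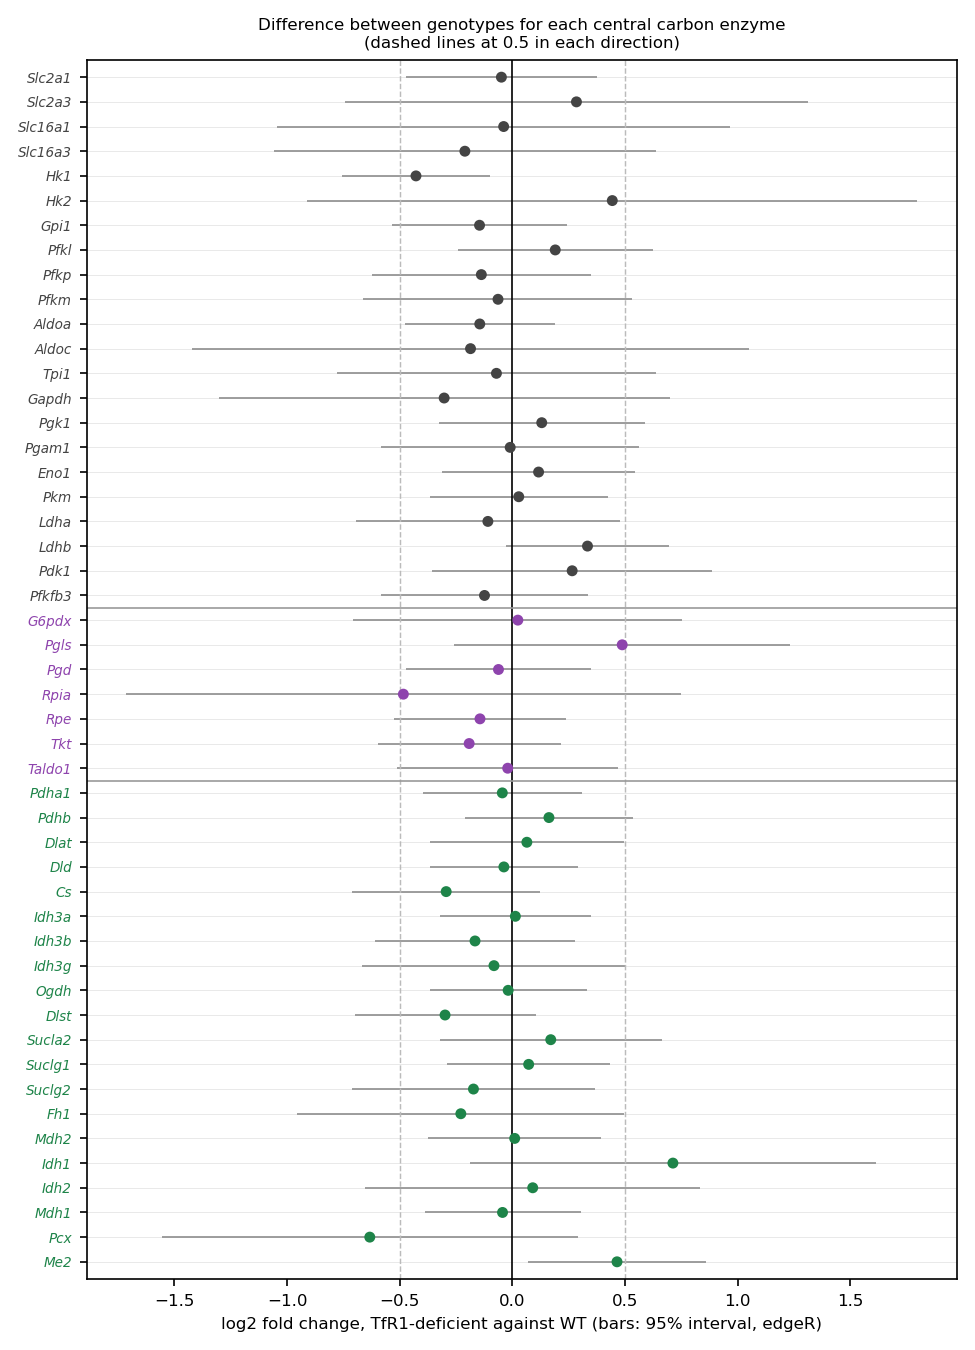
Points give the log2 fold change (horizontal axis, TfR1-deficient against WT, from edgeR) of each of the 49 genes, bars the 95% interval, with glycolysis in grey, pentose phosphate in purple and pyruvate and TCA enzymes in green, and dashed lines at 0.5 in each direction. The bars of *Hk1* and *Me2* do not reach 0, and only the points of *Idh1* and *Pcx* lie outside the dashed lines.

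The 49 genes also spanned a wide range of levels, compared here as CPM per kilobase of exon averaged over the 4 libraries. *Pkm*, which makes pyruvate in the last step of glycolysis, was the most abundant at 837, followed by *Eno1* (enolase) at 410.2, the mitochondrial malate dehydrogenase *Mdh2* at 336 and *Ldha* (lactate dehydrogenase A) at 271. Both malate dehydrogenases and *Me2* were among the 8 highest. At the other end stood *Rpia*, *Hk2*, *Pcx* and *Aldoc*, between 0.336 and 1.41 CPM per kilobase. The scatter within a genotype was wider than the difference between genotypes for most of them, as the plot of levels by library shows. WT replicate 1 held the highest value of the 4 libraries for 25 of the 49 genes (51%), beside 28.2% of all tested genes, and TfR1-deficient replicate 1 the lowest for 24 of the 49 (49%), beside 23.5% of all tested genes. TfR1-deficient replicate 2 was lowest for only 2 of them.

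**Figure D2:**
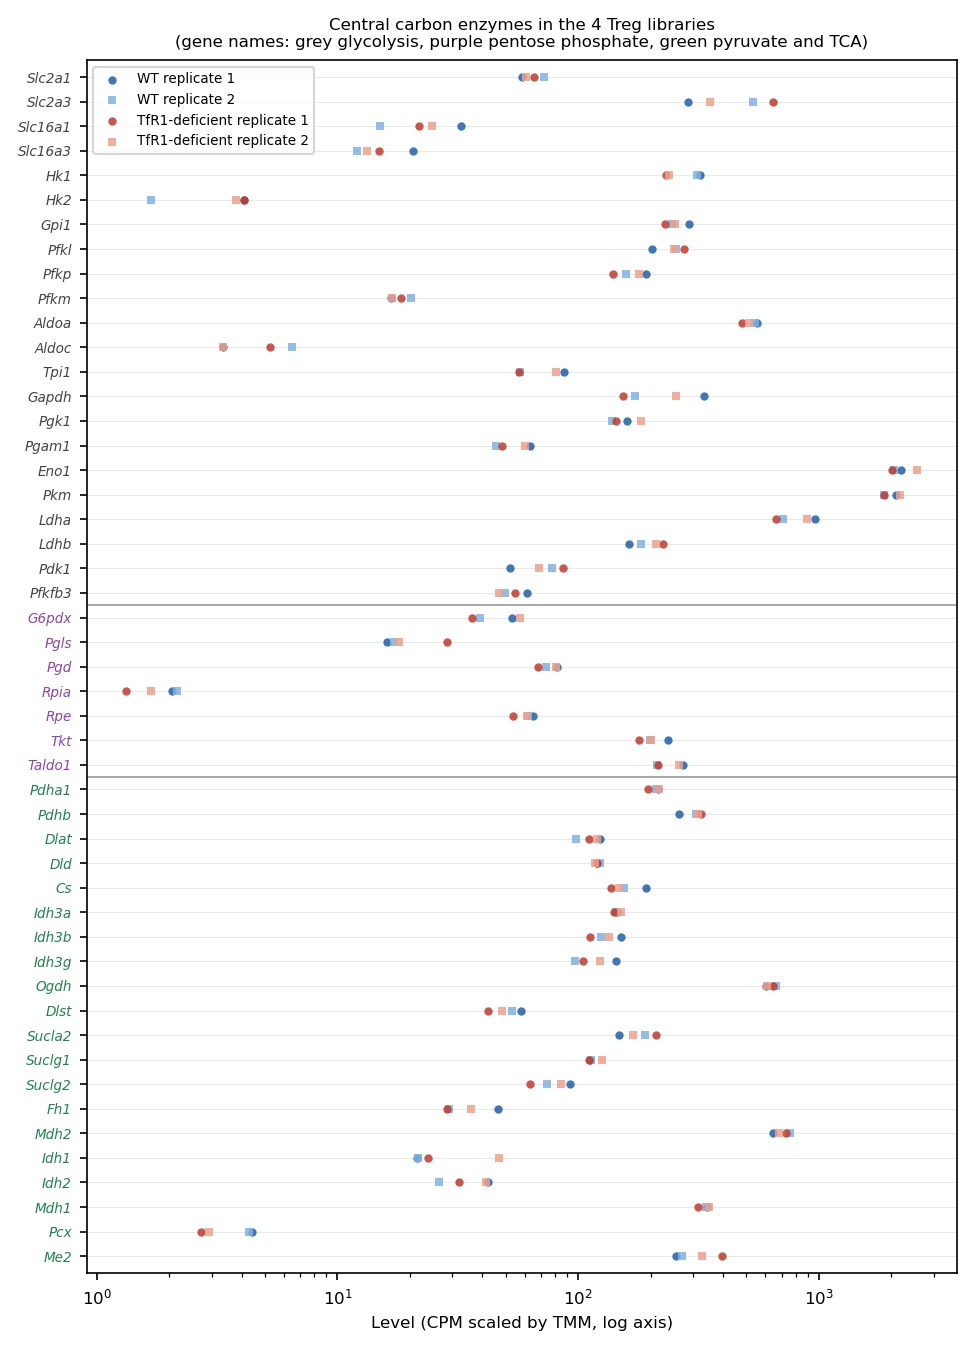
Each point is the level of 1 gene in 1 library (horizontal log axis, CPM scaled by TMM), with WT libraries in blue and TfR1-deficient libraries in red, circles for replicate 1 and squares for replicate 2. Levels run from *Rpia* at 1.33 to 2.16 CPM up to *Eno1* at 2022 to 2568 CPM, and both red points lie left of both blue points for 8 genes and right of them for 5.

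Among the transporters, the GLUT3 gene *Slc2a3* varied most. It was at 287 CPM in WT replicate 1, 530.4 CPM in WT replicate 2, 642 CPM in TfR1-deficient replicate 1 and 352 CPM in TfR1-deficient replicate 2. The highest and the lowest library belonged to different genotypes but the groups overlapped, and the log2 fold change of 0.28 (SE 0.40, adjusted p = 0.962, edgeR) turned to -0.18 without TfR1-deficient replicate 1. GLUT1, encoded by *Slc2a1*, the transporter usually linked to T cell activation, was steadier at 58.6, 71.9, 65.6 and 60.4 CPM in the same order, with both TfR1-deficient values inside the WT range (log2 fold change -0.05, 95% interval -0.47 to 0.37). The lactate exporters *Slc16a1* (MCT1) and *Slc16a3* (MCT4) each had their highest and lowest value in the WT libraries. *Slc16a1* was at 32.5 and 15.1 CPM in WT and at 21.8 and 24.6 CPM in TfR1-deficient libraries, and *Slc16a3* at 20.5 and 12.1 CPM in WT and at 14.9 and 13.3 CPM in TfR1-deficient libraries. Their intervals were wide, from -1.04 to 0.97 for *Slc16a1* and from -1.06 to 0.64 for *Slc16a3*, so a 2-fold decrease lay inside both intervals.

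Of the 9 genes of upper glycolysis, 7 were below 0, with a median log2 fold change of -0.14. *Hk1* (chromosome 10, 62268855 to 62379920, GRCm38.p6) is the hexokinase that phosphorylates glucose in most tissues. It was the 1 member lower at an unadjusted p under 0.05 in edgeR's quasi-likelihood test, beside 3.34% of all tested genes. Its level was 321 CPM in WT replicate 1, 312 CPM in WT replicate 2, 232 CPM in TfR1-deficient replicate 1 and 239 CPM in TfR1-deficient replicate 2. Replicates of each genotype lay close together, and both TfR1-deficient values were below both WT values. The log2 fold change was -0.43 (SE 0.13, 95% interval -0.76 to -0.10), a ratio of 0.743, with an unadjusted p = 0.0206 and an adjusted p = 0.911 in edgeR's quasi-likelihood test. It remained between -0.45 and -0.38 when each library was left out in turn, with unadjusted p between 0.0712 and 0.148. The summed T cell and Treg markers were lower in the same libraries, but single markers differed. Their log2 fold changes ran from -0.81 for *Ctla4* through -0.43 for *Cd3e* (adjusted p = 0.911 for both, edgeR) to 0.05 for *Tnfrsf18*. The 2 tests disagreed on *Ctla4*, which had an adjusted p = 0.00583 in the Wald test of DESeq2, while *Cd3e* had 0.92 there. The groups overlapped for *Cd3g*, *Ikzf2* and *Tnfrsf18*. The part of these markers in the *Hk1* level was not tested.

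The inducible hexokinase *Hk2* was scarce, at 4.09 and 1.69 CPM in WT and 4.09 and 3.80 CPM in TfR1-deficient libraries, from 18 to 71 counts per library. A single WT library, replicate 2, set its log2 fold change of 0.44 (SE 0.53), which was -0.06 without that library. Phosphofructokinase commits sugar to glycolysis, and its genes went different ways within the spread of their replicates. *Pfkl* was at 203 and 256 CPM in WT and 274 and 249.5 CPM in TfR1-deficient libraries (log2 fold change 0.19, SE 0.17). *Pfkp* was at 192 and 158 CPM in WT and at 139.6 and 179 CPM in TfR1-deficient libraries (log2 fold change -0.14, SE 0.19), and *Pfkm* (muscle type) stayed between 16.7 and 20.1 CPM in all 4 libraries. The groups overlapped for all 3 of these genes. *Aldoa*, the main aldolase, was at 554 and 543 CPM in WT and 479.8 and 512 CPM in TfR1-deficient libraries, without overlap but with a log2 fold change of only -0.15 (SE 0.13). For the rest of the upper steps, *Gpi1* (glucose 6-phosphate isomerase), *Aldoc* and *Tpi1* (triosephosphate isomerase), the log2 fold change lay between -0.19 and -0.07.

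The 7 genes of lower glycolysis and lactate dehydrogenase had a median log2 fold change of 0.03, and 3 were below 0. *Gapdh*, often taken as a reference gene, was the least steady of them and the lowest in fold change. It was at 333 CPM in WT replicate 1, 172 CPM in WT replicate 2, 154 CPM in TfR1-deficient replicate 1 and 255 CPM in TfR1-deficient replicate 2. The library order matched that of the proliferation genes in that WT replicate 1 and TfR1-deficient replicate 2 were high, and the log2 fold change of -0.30 (SE 0.39) became 0.28 without WT replicate 1. By contrast *Pkm* was at 2096 and 1868 CPM in WT and 1860 and 2182 CPM in TfR1-deficient libraries (log2 fold change 0.03, 95% interval -0.37 to 0.42). *Eno1* was at 2187 and 2050 CPM in WT and 2022 and 2568 CPM in TfR1-deficient libraries (log2 fold change 0.12, 95% interval -0.31 to 0.55). The table also lists 2 near-identical copies of *Eno1*, *Gm5506* and *Gm13699*, which together held 4.19% as many counts as *Eno1*, so reads may have been split between them, and 28 copies of *Gapdh* held 1.81% as many counts as *Gapdh*. The phosphoglycerate genes *Pgk1* (log2 fold change 0.13) and *Pgam1* (-0.01) overlapped between genotypes as well.

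Lactate dehydrogenase is a tetramer of A and B subunits, the A subunit favouring lactate formation. *Ldha* (chromosome 7, 46842274 to 46855627, GRCm38.p6) was at 966 and 709 CPM in WT and 662 and 891 CPM in TfR1-deficient libraries, with a log2 fold change of -0.11 (SE 0.23). Its high libraries were again WT replicate 1 and TfR1-deficient replicate 2. *Ldhb* (chromosome 6, 142490249 to 142507957, GRCm38.p6) was at 163 CPM in WT replicate 1, 183 CPM in WT replicate 2, 225 CPM in TfR1-deficient replicate 1 and 210.2 CPM in TfR1-deficient replicate 2. Both TfR1-deficient values were above both WT values, and the log2 fold change of 0.33 (SE 0.14, 95% interval -0.03 to 0.70) had an unadjusted p = 0.0647 and an adjusted p = 0.911 in edgeR's quasi-likelihood test. A pseudogene of *Ldhb*, *Gm5514*, held 0.186% as many counts as the gene, and no overlapping gene was found for it.

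The HIF core motif was looked for upstream of all 49 genes, because *Ldha* is a textbook HIF target and its letters can be read beside those of *Ldhb* and *Hk1*, the glycolytic members with the lowest unadjusted p-values. The letters searched were ACGTG and GCGTG, on both strands, in the 250 bases before each start listed by RefSeq on GRCm38.p6. ACGTG overlaps the E-box CACGTG, which other factors bind. At least 1 match was found for 36 of the 46 members with a sequence (78.3%): 19 of 21 in glycolysis (90.5%), 6 of 7 in the pentose phosphate pathway (85.7%) and 11 of 18 among pyruvate and TCA genes (61.1%). No sequence was held for *Me2*, *Slc2a3* and *Idh3a*. The share was 41.5% over all 27025 genes with a listed promoter. Among tested genes it was 62.1% (4979 of 8014 with a sequence), above the share over all promoters. Only 64% of the tested symbols had a sequence, and the share over all promoters includes genes that were not tested. No comparison with the members is drawn from either share. A match of 5 letters is a description of the window and not a binding site.

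The 150 bases before each listed start of the 3 genes are given 5′ to 3′ on the strand of the gene, with matches to the core motif in capitals. They lie at chr7:46845654-46845803 and chr7:46846932-46847081 on the plus strand for *Ldha*, chr6:142507958-142508107 on the minus strand for *Ldhb*, and chr10:62379909-62380058 and chr10:62340422-62340571 on the minus strand for *Hk1* (RefSeq, GRCm38.p6).
Ldha start 1: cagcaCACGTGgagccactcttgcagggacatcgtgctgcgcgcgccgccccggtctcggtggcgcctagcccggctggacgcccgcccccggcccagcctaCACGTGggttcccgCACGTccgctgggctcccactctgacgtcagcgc
Ldha start 2: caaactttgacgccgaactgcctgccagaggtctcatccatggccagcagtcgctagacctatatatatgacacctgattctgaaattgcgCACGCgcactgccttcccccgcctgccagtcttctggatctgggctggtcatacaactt
Ldhb: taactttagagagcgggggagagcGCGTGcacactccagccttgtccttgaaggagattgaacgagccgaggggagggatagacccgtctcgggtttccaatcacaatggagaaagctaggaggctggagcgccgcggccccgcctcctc
Hk1 start 1: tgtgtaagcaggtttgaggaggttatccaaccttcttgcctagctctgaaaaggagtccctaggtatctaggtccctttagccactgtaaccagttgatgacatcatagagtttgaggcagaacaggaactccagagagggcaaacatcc
Hk1 start 2: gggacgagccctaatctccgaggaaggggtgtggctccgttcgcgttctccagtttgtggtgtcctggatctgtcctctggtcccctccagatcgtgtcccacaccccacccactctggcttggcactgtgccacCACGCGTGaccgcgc
The first *Ldha* window held 3 places with the core, 2 of them as an E-box. The second *Ldha* window and the *Ldhb* window held 1 each, the first *Hk1* window 0 and the second *Hk1* window 1. Counts per gene do not tell which start the reads came from.

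Both regulators of glycolytic flux overlapped between genotypes. *Pdk1*, the kinase that switches off pyruvate dehydrogenase and a HIF target, was at 52.1 and 77.7 CPM in WT and 86.8 and 69.1 CPM in TfR1-deficient libraries (log2 fold change 0.27, 95% interval -0.36 to 0.89). *Pfkfb3*, which makes the activator of phosphofructokinase, was at 61.1 and 49.7 CPM in WT and 54.6 and 47.0 CPM in TfR1-deficient libraries (log2 fold change -0.12, 95% interval -0.58 to 0.33).

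Summing all 22 glycolysis genes gave 8148 and 7523 CPM in WT and 7441 and 8453 CPM in TfR1-deficient libraries, so the highest and the lowest sum were both in TfR1-deficient libraries. The 7 pentose phosphate genes summed to 726 and 604 CPM in WT and 581 and 683 CPM in TfR1-deficient libraries, again highest in WT replicate 1 within WT and in replicate 2 within TfR1-deficient. The 20 pyruvate and TCA genes were close, at 3724, 3803, 3840 and 3844 CPM, with both TfR1-deficient sums above both WT sums. Within them the NADP-linked, cytosolic and anaplerotic genes summed to 666 and 662 CPM in WT and 768 and 767 CPM in TfR1-deficient libraries. The pyruvate dehydrogenase genes were at 721 and 739 CPM in WT and 749 and 770 CPM in TfR1-deficient libraries. The TCA cycle genes went the other way, at 2337 and 2403 CPM in WT and 2323 and 2308 CPM in TfR1-deficient libraries. The bars of summed levels show that the first 2 pathways had the same higher library within each genotype as the proliferation genes, and that the third did not within WT.

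**Figure D3:**
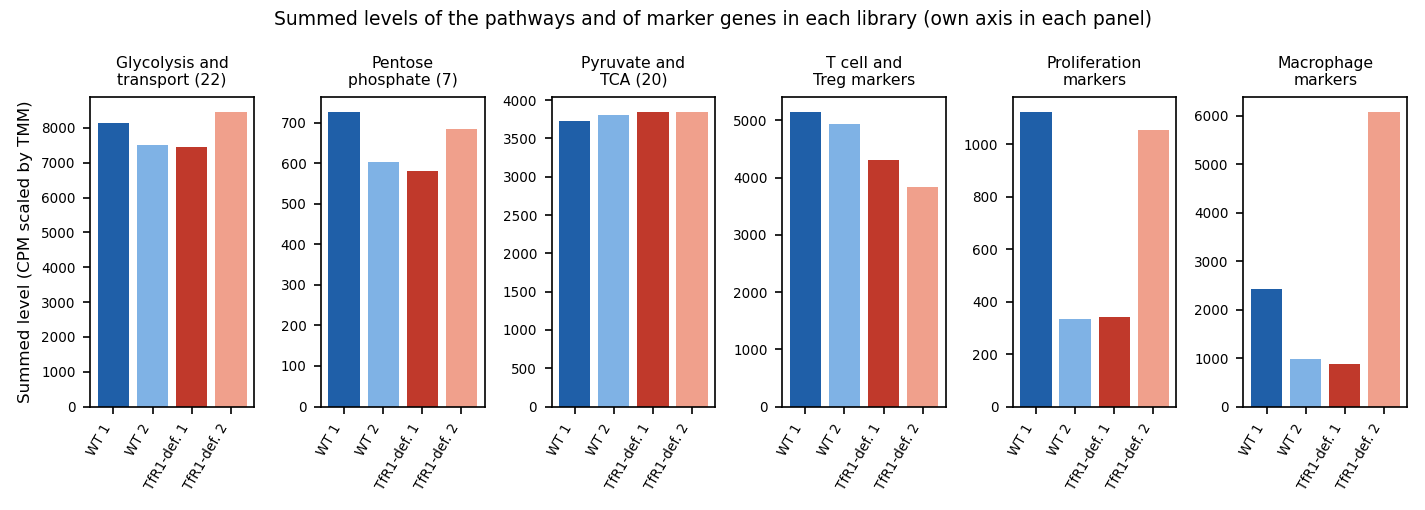
Bars give the summed level (vertical axis, CPM scaled by TMM, starting at 0 with its own scale in each panel) of the 3 pathways and of T cell and Treg, proliferation and macrophage markers in each of the 4 libraries, with WT in blue and TfR1-deficient in red. Glycolysis (7441 to 8453 CPM) and pyruvate and TCA genes (3724 to 3844 CPM) varied little next to the macrophage genes (883 to 6071 CPM). *Ctsb* alone made up 810 CPM of the lowest and 2403 CPM of the highest macrophage sum.

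In the pentose phosphate pathway the median log2 fold change was -0.06, with 5 of 7 below 0. *G6pdx*, the glucose 6-phosphate dehydrogenase that gates the pathway, was at 52.9 and 39.0 CPM in WT and 36.2 and 57.3 CPM in TfR1-deficient libraries (log2 fold change 0.02, SE 0.29). *Pgd*, the second NADPH-yielding step, was at 81.9 and 73.3 CPM in WT and 67.9 and 80.9 CPM in TfR1-deficient libraries (log2 fold change -0.06, SE 0.16). For both of them the TfR1-deficient libraries held the lowest value while the groups overlapped. *Pgls* (6-phosphogluconolactonase), the highest of the 7 in fold change, was at 16.04 and 17.1 CPM in WT and 28.5 and 18.03 CPM in TfR1-deficient libraries. For *Pgls* only TfR1-deficient replicate 1 was far above the WT libraries (log2 fold change 0.49, SE 0.29, adjusted p = 0.934, edgeR), and 20.6% of its exon bases overlap another gene, *Fam129c*. *Rpia* (ribose 5-phosphate isomerase), the lowest, was at 2.05 and 2.16 CPM in WT and 1.33 and 1.68 CPM in TfR1-deficient libraries. It rested on 23 to 25 counts per library, and a stretch of 201 to 207 bases was shared with 4 other genes, of which 2 held 65 counts in all beside 94 for *Rpia*. *Tkt* and *Taldo1*, which shuffle sugars between the pathway and glycolysis, and also *Rpe*, had log2 fold changes between -0.19 and -0.02.

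For all 4 genes of the pyruvate dehydrogenase complex the 95% interval lay within a 2-fold change, and their median log2 fold change was 0.01. *Pdha1*, its catalytic alpha subunit, was at 214 and 210.4 CPM in WT and 194 and 217 CPM in TfR1-deficient libraries (log2 fold change -0.05, 95% interval -0.40 to 0.31). *Pdhb*, the beta subunit, was at 263 and 308 CPM in WT and 323 and 315 CPM in TfR1-deficient libraries (log2 fold change 0.16, 95% interval -0.21 to 0.54). *Dld*, the dehydrogenase subunit that this complex shares with others, differed by a ratio of only 1.05 between its highest and lowest library, and its groups did not overlap. *Dlat*, the acetyltransferase subunit, had a log2 fold change of 0.06.

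For each of the 11 TCA cycle genes the 95% interval lay within a 2-fold change, and their median log2 fold change was -0.08 with 7 below 0. *Cs* (citrate synthase), the entry step, was at 192 CPM in WT replicate 1, 156 CPM in WT replicate 2, 136 CPM in TfR1-deficient replicate 1 and 147 CPM in TfR1-deficient replicate 2. Both TfR1-deficient values were below both WT values, at a log2 fold change of -0.29 (SE 0.16, unadjusted p = 0.13, adjusted p = 0.923, edgeR). *Dlst*, the succinyltransferase of the oxoglutarate dehydrogenase complex and the lowest of the 11, was at 57.9 and 53.2 CPM in WT and 42.2 and 48.2 CPM in TfR1-deficient libraries, also without overlap (log2 fold change -0.30, SE 0.16, adjusted p = 0.915, edgeR). The first subunit of that complex, *Ogdh*, was at 605 and 666 CPM in WT and at 645 and 608.5 CPM in TfR1-deficient libraries, a log2 fold change of -0.02 whose 95% interval ran from -0.37 to 0.33. *Idh3a*, the catalytic subunit of the NAD-linked isocitrate dehydrogenase, held its level in all 4 libraries, at 146, 143, 141 and 150.1 CPM, a ratio of 1.06 between the highest and the lowest. Its partner subunits *Idh3b* and *Idh3g* had log2 fold changes of -0.17 and -0.08.

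*Sucla2*, the subunit of the ATP-forming succinyl-CoA ligase, was the highest of the 11 at 148 and 189 CPM in WT and 209.7 and 169.6 CPM in TfR1-deficient libraries (log2 fold change 0.17, SE 0.19). *Suclg2*, of the GTP-forming enzyme, was on the other side at -0.17 (SE 0.21), and their shared partner *Suclg1* at 0.07. *Fh1* (fumarase) was at 46.4 and 29.1 CPM in WT and 28.6 and 35.8 CPM in TfR1-deficient libraries. The *Fh1* estimate of -0.23 (SE 0.29) rested on WT replicate 1 and was 0.17 without it. *Mdh2* closed the cycle with a log2 fold change of 0.01 (95% interval -0.37 to 0.39).

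The 5 NADP-linked, cytosolic and anaplerotic enzymes held the extremes of the whole set. *Me2*, the mitochondrial malic enzyme that turns malate into pyruvate, was at 254 CPM in WT replicate 1, 269.9 CPM in WT replicate 2, 395 CPM in TfR1-deficient replicate 1 and 328 CPM in TfR1-deficient replicate 2. Both TfR1-deficient libraries were above both WT libraries. The log2 fold change was 0.46 (SE 0.16, 95% interval 0.07 to 0.86), a ratio of 1.38, with an unadjusted p = 0.0295 and an adjusted p = 0.911 in edgeR's quasi-likelihood test. When each library was left out in turn it stayed between 0.36 and 0.59, and the unadjusted p was under 0.05 only without TfR1-deficient replicate 2. The other malic enzymes were almost uncounted, with at most 3 counts in a library for *Me1* and at most 1 for *Me3*.

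*Idh1* (chromosome 1, 65158616 to 65186479, GRCm38.p6), the cytosolic NADP-linked isocitrate dehydrogenase, had the highest log2 fold change of the set. It was at 21.4 and 21.6 CPM in WT, 23.7 CPM in TfR1-deficient replicate 1 and 46.8 CPM in TfR1-deficient replicate 2, so a single library held the gap. The log2 fold change of 0.71 (SE 0.35, 95% interval -0.19 to 1.61, adjusted p = 0.911, edgeR) was 0.14 without TfR1-deficient replicate 2 and 1.15 without TfR1-deficient replicate 1. TfR1-deficient replicate 2 was also the library with 6071 CPM of macrophage genes, and the part of these in the *Idh1* level was not tested. *Pcx* (pyruvate carboxylase; chromosome 19, 4510472 to 4621752, GRCm38.p6), which refills oxaloacetate, had the lowest log2 fold change, from 4.42 and 4.31 CPM in WT and 2.71 and 2.92 CPM in TfR1-deficient libraries. Replicates of *Pcx* lay close together and the genotypes apart, yet with 40 to 54 counts per library the log2 fold change of -0.63 (SE 0.36, 95% interval -1.56 to 0.29) had an adjusted p = 0.934 in edgeR's quasi-likelihood test. *Idh2*, the mitochondrial NADP-linked enzyme, was at 42.4 and 26.3 CPM in WT and 31.9 and 41.3 CPM in TfR1-deficient libraries (log2 fold change 0.09, SE 0.29). *Mdh1*, the cytosolic malate dehydrogenase, had a log2 fold change of -0.04 (95% interval -0.39 to 0.30).

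Ratios of related enzymes within a library need no scaling between libraries, and 10 pairs were compared. With 2 libraries against 2 the exact two-sided permutation test cannot give a p below 0.3333, so no pair could pass a threshold of 0.05. Only *Hk1* to *Hk2* and *Pfkl* to *Pfkm* did not overlap between genotypes. The log2 ratio of *Hk1* to *Hk2* counts was 6.29 and 7.53 in WT and 5.83 and 5.97 in TfR1-deficient libraries, a difference of -1.01 (exact permutation p = 0.3333, adjusted over the 10 pairs 0.741) that was -0.39 without WT replicate 2. The log2 ratio of *Pfkl* to *Pfkm* was 3.60 and 3.67 in WT and 3.89 and 3.89 in TfR1-deficient libraries, a difference of 0.26 (exact permutation p = 0.3333, adjusted 0.741). *Ldha* to *Ldhb* was at 2.57 and 1.96 in WT and 1.55 and 2.08 in TfR1-deficient libraries on the same log2 scale, a difference of -0.44 with overlapping groups (exact permutation p = 0.667). Per kilobase of exon, *Ldha* was above *Ldhb* in every library, by ratios from 1.55 to 3.12, and *Slc2a3* above *Slc2a1*, with a ratio of *Slc2a1* to *Slc2a3* from 0.26 to 0.519.

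**Figure D4:**
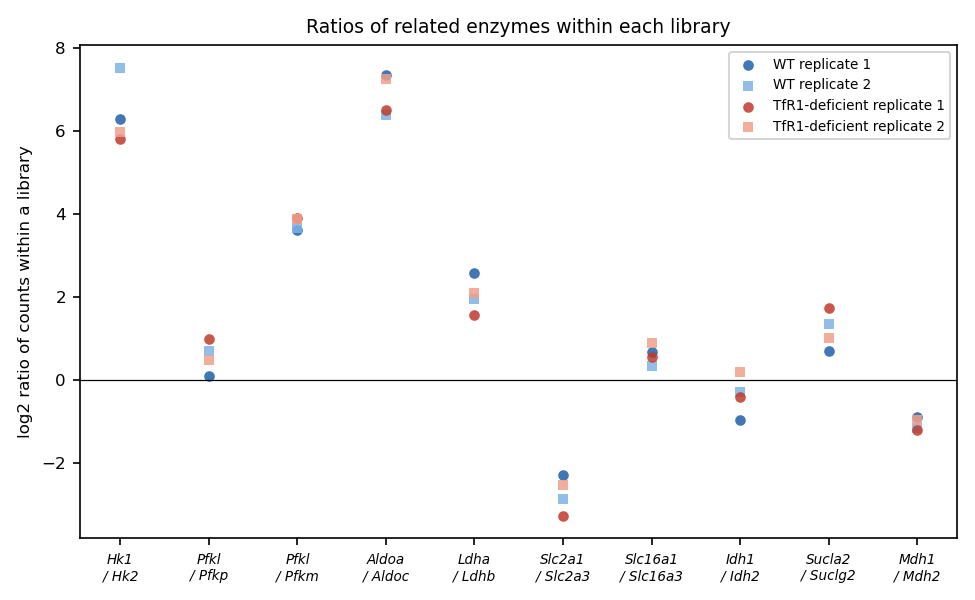
Points give the log2 ratio of the counts of 2 related genes within a library (vertical axis), for 10 pairs along the horizontal axis, with WT libraries in blue, TfR1-deficient libraries in red, circles for replicate 1 and squares for replicate 2. For *Hk1* to *Hk2* both red points (5.83 and 5.97) lie below both blue points (6.29 and 7.53), and for *Pfkl* to *Pfkm* both lie above, while the other 8 pairs overlap.

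Further genes of the same pathways came from a list of 72, of which 53 had enough counts. Their median log2 fold change was 0.02, and at an unadjusted p under 0.05 1 was lower and 1 higher in edgeR's quasi-likelihood test, beside the background of 3.34% and 1.88%. The lower gene was *Pck2*, mitochondrial PEP carboxykinase, which makes phosphoenolpyruvate from oxaloacetate (chromosome 14, 55540263 to 55550020, GRCm38.p6). It was at 41.3 and 35.4 CPM in WT and 23.7 and 26.1 CPM in TfR1-deficient libraries, without overlap, at a log2 fold change of -0.62 (SE 0.19, unadjusted p = 0.0218, adjusted p = 0.911, edgeR). The higher gene was *Eno3* (chromosome 11, 70653125 to 70662513, GRCm38.p6), the muscle-type enolase, at 78.6 and 83.6 CPM in WT and 159 and 105 CPM in TfR1-deficient libraries. Its groups did not overlap either, at a log2 fold change of 0.71 (SE 0.23, unadjusted p = 0.0264, adjusted p = 0.911, edgeR). The lowest estimate of the list was *Slc2a6*, a GLUT family transporter, at 1.80 and 1.59 CPM in WT and 0.98 and 0.73 CPM in TfR1-deficient libraries (log2 fold change -0.98, SE 0.56). The highest was *Hk3*, the hexokinase of myeloid cells, at 1.72 and 0 CPM in WT and 0.173 and 8.47 CPM in TfR1-deficient libraries, highest in the 2 libraries with the most macrophage transcripts (log2 fold change 2.28, SE 1.91).

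Iron-sulfur enzymes were measured beside them. *Aco1*, the cytosolic aconitase that doubles as iron regulatory protein 1, was at 61.5 and 75.0 CPM in WT and 73.7 and 72.1 CPM in TfR1-deficient libraries (log2 fold change 0.10, SE 0.16). Both TfR1-deficient values of *Aco1* were inside the WT range. For succinate dehydrogenase, the flavoprotein *Sdha* had a log2 fold change of -0.00 (SE 0.15), the iron-sulfur subunit *Sdhb* 0.14 (SE 0.14) and the membrane anchor *Sdhd* -0.18 (SE 0.17). The other anchor, *Sdhc*, was at 61.4 and 43.4 CPM in WT and 31.1 and 43.4 CPM in TfR1-deficient libraries (log2 fold change -0.49, SE 0.26, adjusted p = 0.915, edgeR), and its groups overlapped through WT replicate 2 and TfR1-deficient replicate 2.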

How the data were processed

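The 4 libraries of Treg cell mRNA were prepared with a NEBNext low-input kit. The submitters' processing notes name Trim Galore 0.6.7, STAR 2.7.9a, featureCounts and mm10, whereas the study's methods name mm9. The values deposited by the authors are raw counts for each Ensembl gene and library. The sources used here do not give strand, the treatment of multimapping reads or the release of the annotation, and 14930 listed identifiers are absent from GENCODE vM1 (NCBIM37), so a later annotation was used for counting. Symbols were found for 32799 of the 47729 genes, with 0.907% of counts on the rest. Of the 49 members, 48 matched by symbol and *Pkm* by a synonym.

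After filterByExpr and TMM scaling, edgeR 4.0.16 (R 4.3.3) was used for quasi-likelihood tests of genotype, without further terms. P-values were adjusted by Benjamini-Hochberg over all 12536 genes, at a threshold of 0.05. The study's own rule was an unadjusted p under 0.05 and a log2 fold change of at least 0.5. CPM values are TMM-scaled, and SE and 95% intervals come from the same fit. Totals of 10841939 to 17278448 counts leave the spread between replicates as the limit for most members. Replicates differed well beyond sampling noise (chi-square over its degrees of freedom 29.3 in WT, 45.6 in TfR1-deficient libraries) and none was merged. Exon lengths and overlaps came from GENCODE vM1, and copies of members from blastn 2.17.0 at 95% identity or more over at least 200 bases. Promoter sequences and positions are those of RefSeq on GRCm38.p6. The fits were tested on simulated data.

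Named were the flux-controlling members, every gene at an unadjusted p under 0.05, the highest and lowest fold change of each member list, and *Aco1* and the succinate dehydrogenase genes. Some genes of the lists are not reported here. Further members are described by their values, chosen after these were seen. The members, lists and tests were chosen with earlier results of these data known. Same-numbered libraries did not deviate together (correlation of deviations -0.61), so replicate numbers were not taken as pairs. DESeq2 1.42.0, other scaling and filters, a replicate block, other minimum changes and the omission of each library were the alternatives.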

Additional observations from a re-analysis of the deposited data

How the results depend on the processing

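All fits rest on 2 libraries of each genotype, and fits that leave out a library assume that the lone sample varies like the others. At an adjusted p under 0.05, 0 members were called in every setting tried except the crossed replicate block, while over all genes DESeq2 called 34 and edgeR without a count filter 262 (0 as reported). For members at the study's rule (0 lower and 0 higher), omitting the minimum change gave 1 lower and 1 higher, scaling by total library size 1 higher and no count filter 1 higher, and leaving out single libraries gave 0 to 2 higher. Over all genes, 311 lower and 200 higher became 104 and 91 with a minimum log2 change of 1, and 650 higher without a count filter. Leaving out a library gave 131 (without WT replicate 1) to 382 lower and 169 to 353 (without TfR1-deficient replicate 1) higher. With the replicate number as a block, 141 were lower and 70 higher. *Hk1* then had a log2 fold change of -0.43 (unadjusted p = 0.121, edgeR), *Me2* 0.46 (unadjusted p = 0.117, edgeR) and *Slc16a1* 0.06. Same-numbered libraries did not deviate together (correlation -0.61), which does not show whether they were prepared together. A block with crossed numbers, chosen after seeing the data, called 439 genes, 2 of them members, at an adjusted p under 0.05, and 519 lower and 596 higher at the study's rule, with 1 member higher and *Slc16a1* at 0.047. *Ogdh* turned from -0.02 to 0.017 with total library size and to 0.001 with at least 10 counts in every library. The pentose phosphate median of -0.06 ranged from -0.25 to 0.092 when a library was left out. Over the same omissions these genes changed sign, with ranges of -0.17 to 0.10 for *Slc2a1*, -0.18 to 0.79 for *Slc2a3*, -0.49 to 0.64 for *Slc16a1*, -0.55 to 0.24 for *Slc16a3*, -0.057 to 1.24 for *Hk2*, -0.33 to 0.061 for *Pfkp*, -0.72 to 0.28 for *Gapdh*, -0.10 to 0.17 for *Pkm*, -0.34 to 0.15 for *Ldha*, -0.27 to 0.05 for *Pfkfb3*, -0.35 to 0.35 for *G6pdx*, -0.20 to 0.092 for *Pgd*, -0.13 to 0.066 for *Pdha1*, -0.034 to 0.088 for *Idh3a*, -0.07 to 0.048 for *Ogdh*, -0.53 to 0.17 for *Fh1* and -0.22 to 0.50 for *Idh2*. *Ldhb* passed the unadjusted threshold of 0.05 with total library size and with at least 10 counts in every library, *Idh1* without a count filter or without TfR1-deficient replicate 1, and *Pgls* without TfR1-deficient replicate 2. For the rest, the other settings kept direction and side of the threshold for 172 results. The cause of these shifts was not tested.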

Other observations

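Among enzymes that connect the TCA cycle to amino acids, to the cytosol or to pyruvate, differences went in both directions. *Glud1*, glutamate dehydrogenase, was at 58.8 and 88.5 CPM in WT and 125.5 and 85.6 CPM in TfR1-deficient libraries (log2 fold change 0.52, SE 0.28, adjusted p = 0.921, edgeR), with overlapping groups. *Got2*, the mitochondrial aspartate aminotransferase, was at 173 and 98.2 CPM in WT and 86.4 and 136 CPM in TfR1-deficient libraries (log2 fold change -0.29, SE 0.35), highest in WT replicate 1 as *Gapdh* was. *Acly*, which makes cytosolic acetyl-CoA from citrate, was at 542, 516, 536 and 469 CPM in the order WT 1, WT 2, TfR1-deficient 1 and TfR1-deficient 2 (log2 fold change -0.07, SE 0.14). *Pdk2*, another kinase of pyruvate dehydrogenase, did not overlap between genotypes, at 26.7 and 21.1 CPM in WT and 34.9 and 32.6 CPM in TfR1-deficient libraries (log2 fold change 0.50, SE 0.21, unadjusted p = 0.0629, adjusted p = 0.911, edgeR). These 4 genes were chosen after their values were seen.

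Some enzymes known from other tissues or cells were hardly counted at this depth, unlike the muscle-type enolase *Eno3*. *Hkdc1*, *Ldhc*, *Pgk2*, *Fbp1*, *Pdk4* and *Acod1* had 0 counts in all 4 libraries, and the liver and red cell pyruvate kinase *Pklr* had at most 1 count in a library. *Eno2*, the neuronal enolase, had 3 and 4 counts in WT and 31 and 7 counts in TfR1-deficient libraries and did not reach the filter.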
